A study of Mus musculus with 12 samples.

Results

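The genes of mitochondrial chaperones and proteases were followed in B16F10 cells, a mouse melanoma line, with and without knockdown of Osgep. The group holds 10 genes chosen by symbol, namely Hspd1, Hspe1, Hspa9, Dnaja3, Trap1, Lonp1, Clpp, Clpx, Yme1l1 and Oma1. All 10 were found by their Ensembl gene identifiers among the 55487 genes of each count table, and all 10 passed the filter on low counts in total RNA, in footprints and for the ratio of both. The choice was by function, with no cutoff on a measured value, but earlier results of these data were known when it was made.

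The cells expressed a non-targeting control hairpin (shCtr, genotype labelled WT) or a hairpin directed at Osgep, number 2 of its kind (shOSGEP). OSGEP is the enzyme at the core of KEOPS, which installs t6A beside the anticodon of tRNAs for ANN codons, those whose first base is A. Each genotype had 3 replicates, and each replicate gave 1 library of ribosome-protected fragments (RPF, also called footprints) and 1 library of total RNA, hence 12 libraries in 4 groups of 3. All cells received cycloheximide at 10 μg/mL for 5 min, which stops elongation, and active ribosomes were captured with a puromycin analogue on beads. A single hairpin in cultured cells of 1 line limits the model. By the study's methods, hairpins were brought in by lentivirus and cells were selected with puromycin. No cloning step is described there, and the knockdown cells are not named as a pool or a clone. The study's methods give 3 independent transductions for its experiments, although the labels do not tie a replicate number to one of them.

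Most mitochondrial proteins are made in the cytosol, imported unfolded and folded inside the organelle. Matrix HSP70 (Hspa9) pulls them in and passes them to the HSP60 and HSP10 chamber (Hspd1 and Hspe1), while proteases of the matrix (Lonp1, Clpp with its unfoldase Clpx) and of the inner membrane (Yme1l1, Oma1) remove damaged or unassembled proteins. When unfolded proteins build up in mitochondria, cells can raise the transcription of such chaperones and proteases, a response named the mitochondrial unfolded protein response, and in mammals the factors ATF4, CHOP (Ddit3) and ATF5 are associated with it.

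The coding sequences of the 10 genes differ in how many ANN codons they hold, the codons whose tRNAs carry t6A. ANN codons made up 32.5% of the codons of Hspd1, 31.5% of Yme1l1, 30.2% of Hspa9, 29.8% of Dnaja3, 27.6% of Clpp, 27.5% of Hspe1, 27.2% of Trap1, 27.1% of Clpx, 25.5% of Oma1 and 25.4% of Lonp1. The median was 26.96% over the 11243 genes with a coding sequence among those tested for the ratio. Hspd1 stood at the 90.6th percentile of these genes, Yme1l1 at the 86.0th, Oma1 at the 38.3rd and Lonp1 at the 37.3th. The 50-codon window with the most ANN codons is printed for the top and bottom pairs of this order and for Hspe1, the partner of Hspd1, to show what that difference looks like. The sequences are mouse GENCODE M21 coding sequences (GRCm38), 5′ to 3′ on the coding strand, and capitals mark ANN codons.
Hspd1, codons 172 to 221 of 573, 2 exons, chr1:55082095-55083159, minus strand, 24 ANN codons: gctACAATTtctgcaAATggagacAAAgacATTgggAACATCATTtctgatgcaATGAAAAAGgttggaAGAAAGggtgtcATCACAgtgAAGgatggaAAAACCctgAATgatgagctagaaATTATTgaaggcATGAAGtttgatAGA
Yme1l1, codons 515 to 564 of 715, 2 exons, chr2:23192541-23193215, plus strand, 26 ANN codons: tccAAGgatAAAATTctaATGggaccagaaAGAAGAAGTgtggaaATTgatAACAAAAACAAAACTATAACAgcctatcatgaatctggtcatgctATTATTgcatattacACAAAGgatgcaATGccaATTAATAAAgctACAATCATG
Oma1, codons 147 to 196 of 521, 2 exons, chr4:103319479-103321739, plus strand, 19 ANN codons: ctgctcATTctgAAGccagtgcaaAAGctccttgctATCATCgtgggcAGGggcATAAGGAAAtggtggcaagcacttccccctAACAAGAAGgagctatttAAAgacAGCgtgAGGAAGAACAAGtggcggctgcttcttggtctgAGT
Lonp1, codons 535 to 584 of 949, 3 exons, chr17:56616241-56617803, minus strand, 20 ANN codons: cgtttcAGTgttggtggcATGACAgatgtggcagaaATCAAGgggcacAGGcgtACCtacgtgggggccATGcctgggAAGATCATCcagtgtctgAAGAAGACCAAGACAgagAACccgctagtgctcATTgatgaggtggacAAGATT
Hspe1, codons 15 to 64 of 102, 2 exons, chr1:55089090-55090736, plus strand, 16 ANN codons: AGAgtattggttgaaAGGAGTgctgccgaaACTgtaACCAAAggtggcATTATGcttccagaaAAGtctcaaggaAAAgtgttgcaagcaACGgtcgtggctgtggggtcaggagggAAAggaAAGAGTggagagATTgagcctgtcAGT
The window of Yme1l1 held 26 ANN codons of 50 and that of Hspd1 24, against 20 in Lonp1, 19 in Oma1 and 16 in Hspe1.

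Hspd1 (ENSMUSG00000025980, chr1:55077835-55088243, minus strand) and Hspe1 (ENSMUSG00000073676, chr1:55088132-55091307, plus strand) lie head to head, and 112 bases of their annotated exons overlap on opposite strands. Hspd1 has 2 RefSeq start sites. The promoter window of the inner one (55087883 to 55088182) is in large part the same DNA as that of Hspe1 (55087898 to 55088197). The same does not hold for the window of the outer one. In the RefSeq promoter windows (GRCm38.p6, 250 bases before to 50 after a start site), which covered 9 of the 10 genes with 10 windows and lacked Hspa9, the heat shock element core GAANNTTC (a palindrome, so the same on both strands) occurred in 1 of the 2 windows of Hspd1 and in the window of Hspe1, and it was the same site in both. It lay 76 bases before the start site of Hspe1 (position 55088148). The inner RefSeq start site of Hspd1 is at position 55087932, and the core lay 131 bases before it. The outer start site, at position 55088243, is the annotated start of this minus-strand gene, and the core lay 172 bases after it. No window of the other 7 genes held it, and 7.86% of all 32851 windows did. The core TGATGNAA of the element named for ATF4 and CHOP, searched on both strands, was in 0 of the 10 windows and in 3.97% of all windows. The shared site is printed with its flanks on the plus strand, with the core in capitals, because the values of Hspd1 and Hspe1 are compared further on.
chr1:55088053-55088082: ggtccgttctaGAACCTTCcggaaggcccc

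The depth behind these genes was uneven. Total RNA libraries held 46.7 to 81.1 M counts (M, mega) with 43.7 to 74.5 M on protein-coding genes, and RPF libraries held 12.9 to 40.3 M with 4.42 to 17.02 M on protein-coding genes. The lowest of these, shOSGEP replicate 1 RPF, had 67.7% of its counts on ribosomal RNA, against 27.7% to 44.8% in the other 5 RPF libraries. A member had 235 to 95860 counts in a total RNA library and 42 to 15530 in an RPF library, with Oma1 the thinnest in both. Osgep measured 13.9, 15.7 and 15.3 CPM (reads of a gene relative to the TMM-scaled size of its library) in shCtr total RNA and 0.589, 6.92 and 6.77 in shOSGEP total RNA (replicates 1, 2 and 3), so 4.25%, 44.03% and 44.4% was left, and 63.1%, 52.3% and 50.1% in RPF. Its fitted log2 change was −1.65 (SE 0.77, edgeR adjusted p 0.975) in total RNA and −0.84 (SE 0.39, edgeR adjusted p 0.9998) in RPF. The targeted gene itself was thus not called in either assay. The summed CPM of 7 melanocyte markers (Mitf, Tyr, Tyrp1, Dct, Pmel, Mlana, Sox10), all detected in every total RNA library, was 13112, 16837 and 9665 in shCtr and 2655, 12789 and 11390 in shOSGEP. The summed CPM of 8 markers of immune, epithelial, endothelial and stromal cells was 4.09 to 5.33 in shCtr and 4.78 to 9.05 in shOSGEP, mostly Pdgfra, with Cd3e, Epcam and Krt5 at 0 counts in all 6 total RNA libraries. The total RNA library of shOSGEP replicate 1 thus stood apart in Osgep and in melanocyte markers, and its RPF library in ribosomal RNA. For Osgep the assays differed, since replicate 1 had the least left in total RNA (4.25%) and the most in RPF (63.1%). The part of shOSGEP replicate 1 in the results was not tested. Values without it are given beside the genes whose direction it turned. In such bulk libraries, fewer cells of a type and less RNA per cell cannot be told apart.

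Within control cells the 10 genes spanned a wide range of levels. Per kb of exon, total RNA of shCtr cells was highest for Hspd1, at 347 ± 84.1 CPM per kb (SD, n = 3 here and for the next values). Hspe1 followed at 108 ± 17.8 and Hspa9 at 92.8 ± 12.3, then Lonp1 at 36.1 ± 8.03, Trap1 at 30.9 ± 0.481 and Clpp at 30.1 ± 2.68. Yme1l1 stood at 20.6 ± 1.54, Dnaja3 at 13.6 ± 0.904, Clpx at 7.86 ± 1.06 and Oma1 at 2.53 ± 0.340 CPM per kb. The folding chamber and matrix HSP70 thus stood above all the proteases. Neighbours in this order whose libraries overlapped were Hspe1 and Hspa9, Lonp1 and Trap1, and Trap1 and Clpp, while every other neighbouring pair did not overlap. In shOSGEP cells the order of the 10 genes and the overlapping neighbours were the same.

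Footprints followed a similar order per kb of coding sequence. In shCtr cells Hspd1 measured 214 ± 114 CPM per kb, Hspe1 143 ± 64.2 and Hspa9 109 ± 33.2, and these overlapped as neighbours. Lonp1 had 33.2 ± 4.87, Yme1l1 27.3 ± 11.8, Clpp 17.9 ± 4.27, Trap1 17.1 ± 3.54, Dnaja3 13.8 ± 1.15, Clpx 6.90 ± 2.66 and Oma1 1.58 ± 0.472 CPM per kb. Neighbours from Lonp1 down to Dnaja3 all overlapped. Clpp, the peptidase, was about equal to Trap1 and per kb exceeded its partner Clpx in every shCtr library in both assays.

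**Figure D1:**
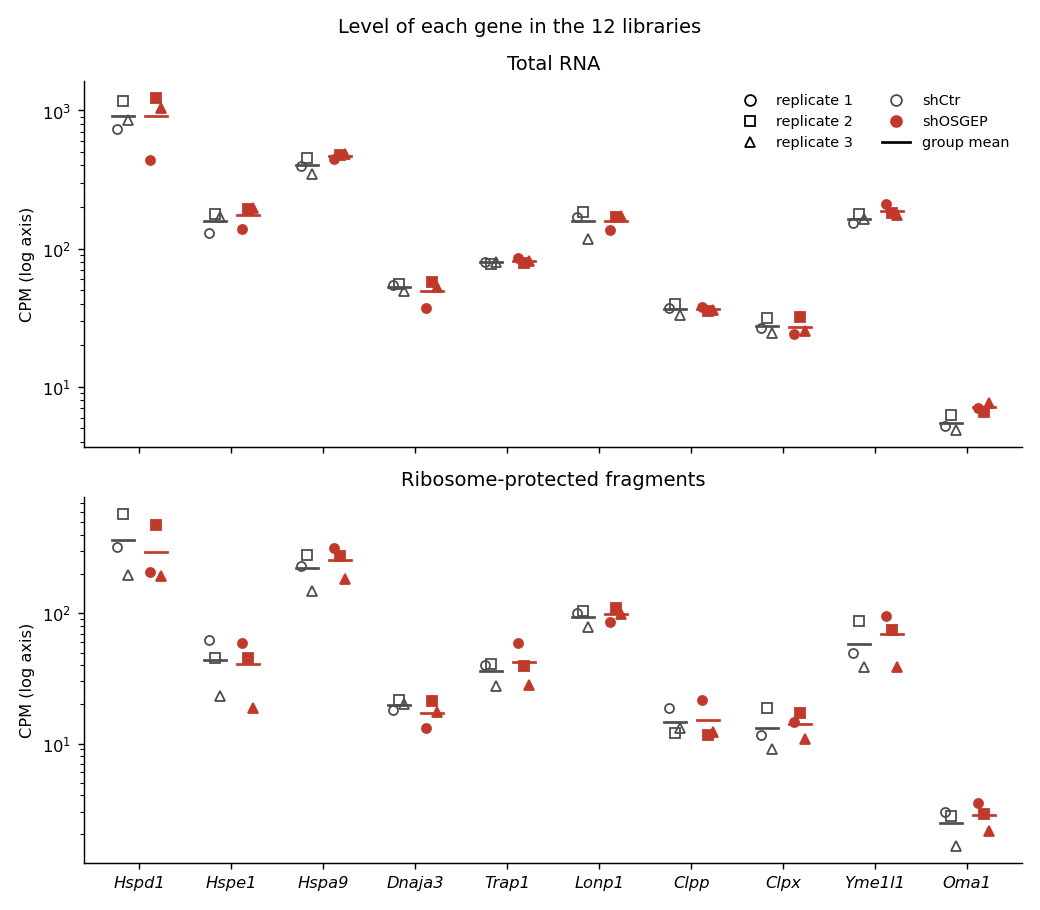
CPM on a log axis for each of the 10 genes in total RNA (upper panel) and RPF (lower panel), with shCtr as open grey and shOSGEP as filled red points, one shape per replicate and a bar at the mean of each group of 3. In total RNA only the Oma1 groups do not overlap, and in RPF replicate 3 lies lowest in both genotypes for Hspd1, Hspe1, Hspa9, Clpx, Yme1l1, Trap1 and Oma1.

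The ratio of footprints to RNA, each per length, describes the density of footprints relative to RNA. Each assay was scaled on its own, so the ratio is a relative value and not a number of ribosomes per transcript. In shCtr cells the mean ratio was 1.41 ± 0.847 for Hspe1, 1.31 ± 0.485 for Yme1l1, 1.15 ± 0.217 for Hspa9, 1.02 ± 0.0994 for Dnaja3, 0.933 ± 0.0808 for Lonp1 and 0.859 ± 0.212 for Clpx. It was 0.620 ± 0.166 for Oma1, 0.601 ± 0.217 for Hspd1, 0.599 ± 0.144 for Clpp and 0.555 ± 0.118 for Trap1. Hspd1, the most abundant transcript of the group, therefore had one of the lower ratios. The ratio of Hspe1 was 2.33, 1.22 and 0.666 in shCtr replicates 1, 2 and 3 and 2.06, 1.13 and 0.461 in the shOSGEP replicates of the same numbers. Both genotypes moved together across replicate numbers by more than they differed within one. These ratios and their order depend on the lengths used. With exon length for RPF as well, Hspe1 (0.292) and Yme1l1 (0.351) had the lowest ratios of the 10 and Lonp1 (0.607) the highest. The merged exons of Hspe1 and Yme1l1 were 1474 and 8009 bases long against 306 and 2145 bases of coding sequence.

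**Figure D2:**
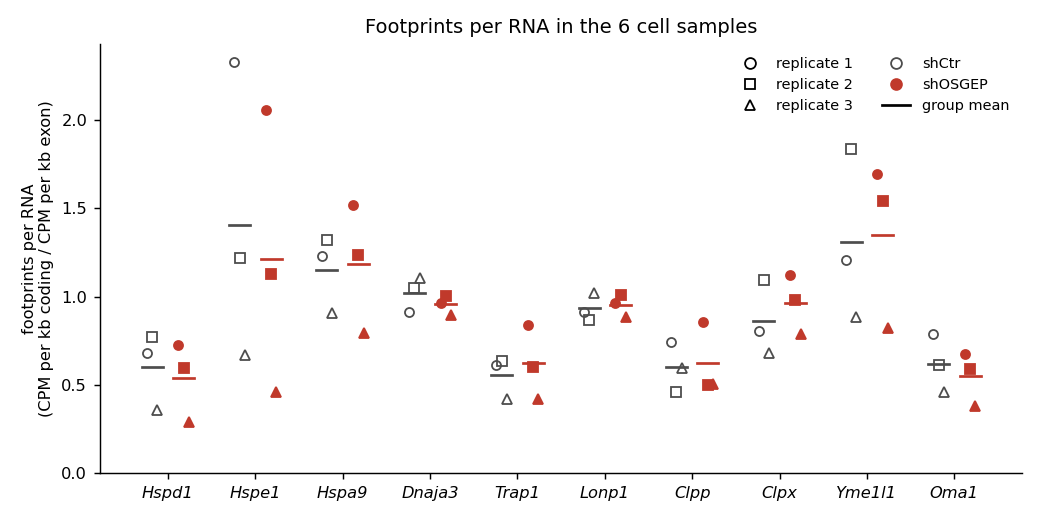
Footprints per RNA, as RPF CPM per kb of coding sequence over total RNA CPM per kb of exon, in the 6 cell samples, with the symbols of the plot of levels. Dnaja3 and Lonp1 stay within 0.865 to 1.11 in all 6 samples, while Hspe1 runs from 0.461 to 2.33.

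Osgep knockdown was then compared with control in total RNA, to ask whether the group changed at the transcript level. None of the 10 genes passed an edgeR adjusted p of 0.05, as for all genes, of which 0% of 14516 were called, and none had an unadjusted p under 0.05, where 1.78% of all genes did. The median log2 change of the 10 genes was 0.03 (6 of 10 above 0), beside 0.02 over all genes tested. Their changes ran from −0.11 to 0.39, and the 95% intervals of all 10 lay within 1 log2 unit of 0, with a lowest bound of −0.94 and a highest of 0.92. A change of 1 log2 unit either way thus lay outside every interval in total RNA, each taken on its own without adjustment.

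Hspd1, the HSP60 subunit of the folding chamber, had the largest SE of the 10 genes in total RNA. It measured 736, 1166 and 852 CPM in shCtr replicates 1, 2 and 3 and 438, 1238 and 1043 CPM in shOSGEP. The lowest and the highest of the 6 libraries were both shOSGEP, so the groups overlapped fully. The fitted log2 change was −0.02 (SE 0.39, edgeR adjusted p 0.998), and by replicate pair it was −0.75, 0.09 and 0.29. Leaving out shOSGEP replicate 1 turned the fitted change to 0.30, while leaving out shOSGEP replicate 2 gave −0.32.

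Hspe1, the HSP10 lid of the chamber, measured 129, 179 and 168 CPM in shCtr and 138, 194 and 196 CPM in shOSGEP. Each shOSGEP library exceeded the shCtr library of its number, although the groups overlapped. The fitted log2 change was 0.15 (SE 0.20, 95% interval −0.33 to 0.63, edgeR adjusted p 0.975). Per kb of exon, Hspd1 RNA was 3.18, 3.63 and 2.83 times Hspe1 RNA in shCtr and 1.77, 3.56 and 2.97 times in shOSGEP. The value of shOSGEP replicate 1 lay below the other 5 libraries, which ran from 2.83 to 3.63. In RPF per kb of coding sequence this ratio was 0.925, 2.29 and 1.51 in shCtr and 0.623, 1.88 and 1.85 in shOSGEP, and replicate 1 was lowest in both genotypes. The pair that lies head to head and forms one chamber was thus not measured at a fixed ratio across libraries. Their overlapping exon bases are 7.60% of those of Hspe1 and 4.24% of those of Hspd1. Reads there cannot be assigned to one gene with certainty. In RPF the ratio also leaves out the reads counted on pseudogenes of Hspd1, given further on.

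Matrix HSP70 and its partners were compared next. Hspa9 (ENSMUSG00000024359, on chromosome 18 from 34937414 to 34954357, minus strand) measured 399, 453 and 348 CPM in shCtr and 442, 476 and 487 CPM in shOSGEP. It was higher in 3 of 3 pairs, with overlap between the second shCtr library and the first shOSGEP library, and its fitted change was 0.23 (SE 0.15, edgeR adjusted p 0.975). Dnaja3 (ENSMUSG00000004069, chr16:4639989-4707695, plus strand), a J-domain co-chaperone of matrix HSP70, measured 54.2, 55.9 and 49.1 CPM in shCtr and 37.3, 57.4 and 52.5 CPM in shOSGEP. Its shOSGEP replicate 1 library was the lowest of the 6, as for Hspd1, and the fitted change was −0.11 (SE 0.19, edgeR adjusted p 0.975) with all libraries and 0.04 without that library. Trap1 (ENSMUSG00000005981, chr16:4039971-4077827, minus strand), the mitochondrial HSP90, was the steadiest gene, at 80.4, 78.1 and 80.0 CPM in shCtr and 85.6, 79.1 and 81.6 CPM in shOSGEP. Its fitted change was 0.05 (SE 0.12, 95% interval −0.24 to 0.33), and only 0.262% of all genes tested had a smaller SE. Exons of Dnaja3 overlap those of Coro7 (153 bases, opposite strand) and Vasn (160 bases, same strand), and exons of Trap1 those of Dnase1 (54 bases, opposite strand), so reads there cannot be assigned to one gene with certainty. These are 3.91% and 4.09% of the exon bases of Dnaja3 and 2.10% of those of Trap1.

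The matrix proteases differed between genotypes by less than their replicates did. Lonp1 (ENSMUSG00000041168, chr17:56614297-56626887, minus strand), an ATP-dependent protease, measured 169, 186 and 118 CPM in shCtr and 136, 168 and 173 CPM in shOSGEP. It was lower in pairs 1 and 2, by 0.31 and 0.14, and higher in pair 3 by 0.55, for a fitted change of 0.01 (SE 0.20). Clpp (ENSMUSG00000002660, chr17:56990305-56996188, plus strand), the peptidase of the ClpXP protease, measured 37.5, 39.6 and 33.2 CPM in shCtr and 38.0, 35.1 and 36.2 CPM in shOSGEP. Clpx (ENSMUSG00000015357, chr9:65294260-65330658, plus strand), which unfolds substrates for Clpp, measured 26.5, 31.6 and 24.3 CPM in shCtr and 24.0, 32.2 and 25.3 CPM in shOSGEP. Both had a fitted change of −0.01 (SE 0.14 for Clpp and 0.18 for Clpx), with intervals of −0.34 to 0.31 and −0.45 to 0.42, and Clpx stood at 0.06 without shOSGEP replicate 1.

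Both proteases of the inner membrane were higher in 3 of 3 pairs. Yme1l1 (ENSMUSG00000026775, chr2:23156369-23199260, plus strand), the i-AAA protease, measured 152, 177 and 165 CPM in shCtr and 210.1, 181 and 175 CPM in shOSGEP. Its fitted change was 0.20 (SE 0.14, edgeR adjusted p 0.975), and the pair differences were 0.46, 0.03 and 0.09. Oma1 (ENSMUSG00000035069, chr4:103313812-103371868, plus strand), a stress-activated metalloprotease that cleaves OPA1 and DELE1, measured 5.19, 6.25 and 4.86 CPM in shCtr and 7.08, 6.63 and 7.67 CPM in shOSGEP. All 3 shOSGEP libraries exceeded all 3 shCtr libraries, the only such case among the 10 genes. Groups did not overlap for 7.08% of all genes tested. The fitted change of Oma1 was 0.39 (SE 0.22, 95% interval −0.14 to 0.92, unadjusted p 0.122 from edgeR, adjusted p 0.975), it rested on 235 to 513 reads per library, and 74.8% of all genes had a smaller absolute change. Higher in 3 of 3 pairs were 5 of the 10 genes, namely Hspe1, Hspa9, Trap1, Yme1l1 and Oma1, and 0 were lower in 3 of 3, where 17.7% of all genes were higher and 16.2% lower in all pairs.

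Footprints were compared in the same way, to ask whether ribosome occupancy changed. Of the 10 genes 0 passed an edgeR adjusted p of 0.05 (0% of 13529 genes tested) and 0 had an unadjusted p under 0.05 (1.03% of all genes). The median log2 change was 0.09 (7 of 10 above 0), beside 0.05 over all genes, with values from −0.32 to 0.25, and without shOSGEP replicate 1 the median was −0.06. Standard errors were larger than in total RNA, from 0.26 to 0.55, and the 95% intervals of only 4 of the 10 genes lay within 1 log2 unit of 0, so without pairing a change of 1 log2 unit was not bounded for the other 6. With the replicate number as a block, standard errors were 0.18 to 0.31, all 10 intervals lay within 1 log2 unit of 0, and the lowest edgeR adjusted p of the 10 genes was 0.817. Higher in 3 of 3 pairs was 1 gene, Oma1 (15.6% of all genes), lower in 3 of 3 were 2, Hspd1 and Dnaja3 (15.2% of all genes), and the groups of 0 genes were without overlap (5.07% of all genes).

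Hspd1 footprints measured 324, 583 and 198 CPM in shCtr and 207, 481 and 195 CPM in shOSGEP. Replicate 2 was highest in both genotypes, and each shOSGEP library lay below the shCtr library of its number, by 0.65, 0.28 and 0.02 on the log2 scale. The fitted change was −0.32 (SE 0.55, 95% interval −1.62 to 0.97, edgeR adjusted p 0.9998), and without shCtr replicate 2 it turned to 0.16. Hspe1 footprints measured 62.4, 45.3 and 23.3 CPM in shCtr and 59.1, 45.5 and 18.7 CPM in shOSGEP, close to each other within each replicate number. Its fitted change was −0.09 (SE 0.52). Dnaja3 footprints measured 18.2, 21.5 and 19.99 CPM in shCtr and 13.2, 21.2 and 17.4 CPM in shOSGEP, with a fitted change of −0.20 (SE 0.26, edgeR adjusted p 0.9998).

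Some footprints were counted on copies of Hspd1. Hspd1 has 5 named pseudogenes in the annotation, of which Hspd1-ps3, a processed copy, took nearly all their counts. The pseudogenes held 0.208% to 0.713% of the sum of both in total RNA, but 15.3%, 11.4% and 16.1% in shCtr RPF and 21.3%, 16.4% and 13.9% in shOSGEP RPF. When these counts were added to Hspd1, an alternative chosen after the shares were seen, the fitted change was −0.26 (SE 0.54) in RPF and −0.02 in total RNA. The 6 named pseudogenes of Hspe1 held at most 0.414% and the one of Hspa9 at most 0.130% in any library. How the deposited tables count reads with several matches is not given in the sources used here. The level of Hspd1 footprints is therefore uncertain, and these shares do not set a bound on that uncertainty. The same holds for Hspe1.

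The other members had footprint values that overlapped between genotypes. Hspa9 measured 232, 283 and 149 CPM in shCtr and 317, 278 and 183 CPM in shOSGEP, a fitted change of 0.23 (SE 0.38). Trap1 measured 40.5, 40.8 and 27.6 CPM against 59.0, 39.2 and 28.3 CPM, and Yme1l1 49.2, 87.1 and 39.0 CPM against 95.2, 74.8 and 38.5 CPM, so that in both genes shOSGEP replicate 1 alone was above all shCtr libraries. Their fitted changes were 0.22 (SE 0.34) for Trap1 and 0.25 (SE 0.45) for Yme1l1, and without shOSGEP replicate 1 they turned to −0.12 and −0.05. Lonp1 footprints measured 101, 104 and 78.7 CPM in shCtr and 85.3, 111 and 99.3 CPM in shOSGEP. Lonp1 was the member with the least spread between replicates of shOSGEP in RPF, and its fitted change was 0.06 (SE 0.27). Clpp footprints measured 18.6, 12.1 and 13.2 CPM in shCtr and 21.7, 11.7 and 12.2 CPM in shOSGEP, and those of Clpx 11.6, 18.8 and 9.03 CPM and 14.7, 17.2 and 10.9 CPM. Replicate 1 was highest for Clpp and replicate 2 highest for Clpx in both genotypes, and the fitted changes were 0.05 (SE 0.34) and 0.12 (SE 0.35). Without shOSGEP replicate 1 that of Clpp turned to −0.30. Oma1 footprints, from 42 to 92 reads per library, measured 2.99, 2.79 and 1.62 CPM in shCtr and 3.47, 2.85 and 2.13 CPM in shOSGEP, with a fitted change of 0.19 (SE 0.43).

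**Figure D3:**
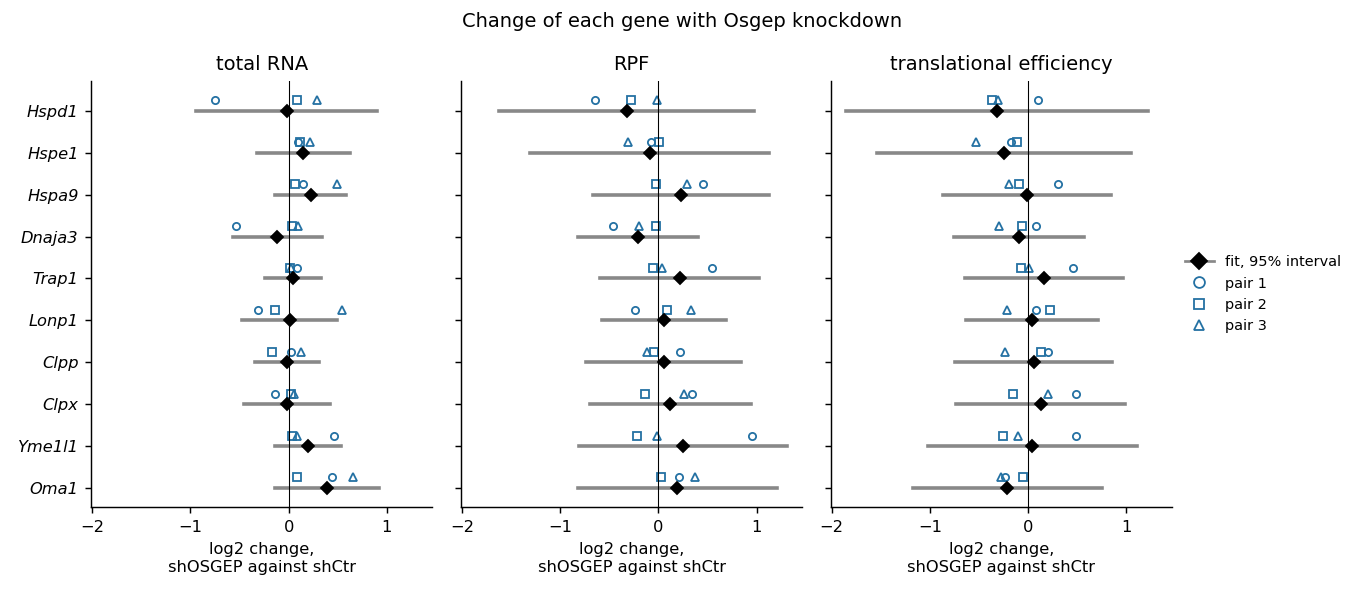
Log2 change of shOSGEP against shCtr for each of the 10 genes in total RNA, RPF and translational efficiency, with black diamonds for the fitted change, grey bars for its 95% interval and blue open symbols for the 3 replicate pairs. Every interval crosses 0, the intervals of total RNA all lie between −0.94 and 0.92, and those of Hspd1 are the widest in each panel.

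Translational efficiency, the ratio of footprints to RNA, was tested as an interaction over all 12 libraries. Of the 10 genes 0 passed an edgeR adjusted p of 0.05 (0% of 12560 genes tested) and 0 had an unadjusted p under 0.05 (0.135% of all genes). The median log2 change was 0.01 (5 of 10 above 0), beside −0.00240 over all genes. Hspd1 had the lowest value, −0.31 (SE 0.70), followed by Hspe1 at −0.25 (SE 0.59) and Oma1 at −0.21 (SE 0.44), and Trap1 had the highest, 0.16 (SE 0.36). Dnaja3 stood at −0.10, Hspa9 at −0.01, Lonp1 and Yme1l1 at 0.04, Clpp at 0.06 and Clpx at 0.13. The edgeR adjusted p was 0.99999 for each. Without shOSGEP replicate 1 the median was −0.19, with Clpp at −0.25, Yme1l1 at −0.16 and Trap1 at −0.12.

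By replicate pair the ratio moved with the replicate number. It was higher in shOSGEP for 8 of the 10 genes in pair 1, for 2 in pair 2 and for 2 in pair 3, and the medians were 0.15, −0.09 and −0.22. Shares over all genes by single pair are not given here. This turn was not particular to the 10 genes. Medians were 0.36, −0.18 and −0.15 for ER chaperones and 0.38, −0.21 and −0.20 for cytosolic chaperones, lists described further on. Co-chaperones and other mitochondrial proteases turned by less. Import, scaffold and stress signalling lists did not follow it. Lower in 3 of 3 pairs were 2 genes, Hspe1 (by 0.18, 0.11 and 0.53) and Oma1 (by 0.24, 0.05 and 0.28), 0 were higher in 3 of 3, and 0 had groups without overlap, where 11.2% of all genes were lower, 11.6% higher and 4.34% without overlap. Hspd1 and Yme1l1, the members richest in ANN codons, changed by −0.31 and 0.04, and Lonp1 and Oma1, the poorest, by 0.04 and −0.21. The intervals of these changes all overlap, so the order of change among these genes was not resolved. A link between ANN share and change was not tested.

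The variation of Hspd1 across the total RNA libraries was described by the genes closest to it. Log2 CPM was centred on the mean of the 6 libraries, and genes were ranked by root mean square difference from Hspd1 among 14515 others. The 5 closest were Ncl (difference 0.0792), Noa1 (0.0855), Gm2026 (0.0990), Pnpt1 (0.103) and mt-Nd5 (0.107). Ncl encodes nucleolin, Noa1 a mitochondrial GTPase, Pnpt1 the mitochondrial polynucleotide phosphorylase and mt-Nd5 a complex I subunit of the mitochondrial genome. In shOSGEP replicate 1 Hspd1 stood 0.98 below its mean and these 5 genes 0.86 to 1.05 below theirs. Hspe1 stood 0.26 below and ranked 2198th, with a difference of 0.35. Dnaja3 was the closest of the 10 genes, at rank 1816, and Yme1l1 the farthest, at rank 7316. With 6 libraries, in which a single library carries most of the difference, this ranking is a description.

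**Figure D4:**
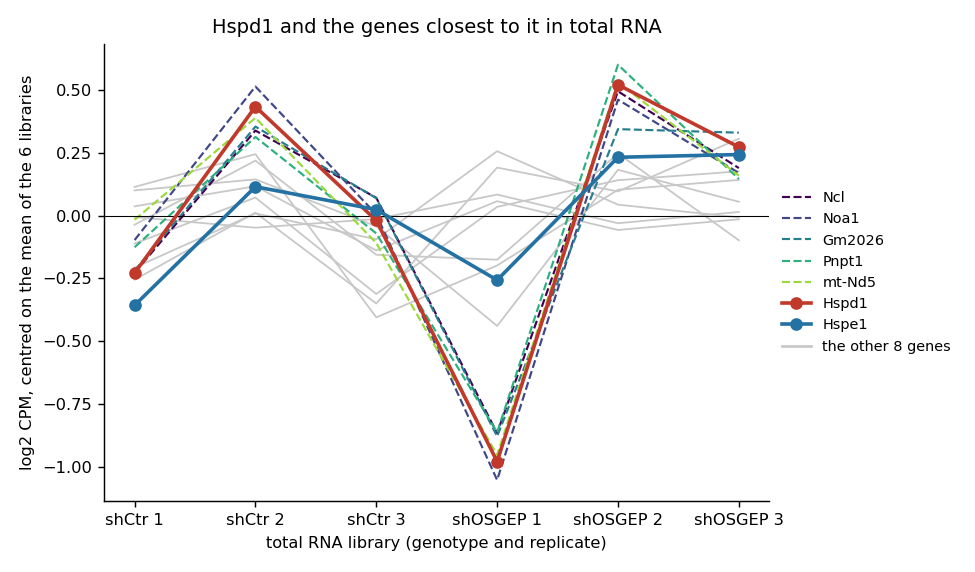
Log2 CPM in total RNA, centred on the mean of the 6 libraries, for Hspd1 (red), its partner Hspe1 (blue), the 5 genes closest to Hspd1 (dashed) and the other 8 genes (grey), with lines joining libraries only to guide the eye. Hspd1 and the dashed genes drop to between −0.86 and −1.05 in shOSGEP replicate 1, where Hspe1 is at −0.26.

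Genes that work beside the 10 were counted from lists of related functions, again in all 3 comparisons. No gene of any list passed the threshold in any comparison, beside 0% of all genes. Of 10 co-chaperones of the matrix, such as the nucleotide exchange factor Grpel1, 0 had an unadjusted p under 0.05 in any comparison, and their median change was 0.07 in total RNA and 0.08 in RPF. Dnajc15 in total RNA (0.11, SE 0.16) and the disaggregase Clpb in RPF (−0.05, SE 0.40) had one sign in all pairs. For translational efficiency these were Dnajc30 (0.19, SE 0.42) and Clpb (−0.19, SE 0.46).

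Of 13 other mitochondrial proteases, such as the m-AAA subunits Afg3l1 and Afg3l2, 0 had an unadjusted p under 0.05, and the median was −0.02 in total RNA and −0.06 in RPF (12 tested). The 2 with the largest differences of one sign in all pairs, both for translational efficiency, were Afg3l1 (−0.24, SE 0.31) and the intermembrane space protease Htra2 (0.28, SE 0.39). Scaffolds and substrates of these proteases (9 genes, such as the prohibitins Phb and Phb2) had a median of −0.05 in total RNA and −0.22 in RPF. By the rule for naming list genes, these were Pgam5, a mitochondrial phosphatase (−0.48, SE 0.33 in total RNA and 0.45, SE 0.50 for translational efficiency), and Timm17a, an import channel subunit degraded by Yme1l1 (0.16, SE 0.14 in total RNA). Opa1, the fusion GTPase cut by Oma1 and Yme1l1, had −0.22 (SE 0.35) and the lipid carrier Prelid1 −0.37 (SE 0.32) in RPF, and Prelid1 −0.34 (SE 0.34) for translational efficiency. Of 8 import genes (median −0.06 in total RNA and −0.11 in RPF), Timm50 had −0.33 in total RNA (SE 0.29), with −0.24 in RPF (SE 0.25), Timm21 0.31 (SE 0.27) in RPF and 0.28 (SE 0.32) for translational efficiency, and Tomm70a −0.21 (SE 0.28) for translational efficiency. None of the import, scaffold or substrate genes had an unadjusted p under 0.05.

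The 4 genes of mitochondrial stress signalling, Eif2ak1 (HRI, a kinase of eIF2 alpha), Atf4, Atf5 and Ddit3, were counted next, since they are associated with the chaperones and proteases. Their median log2 change was 0.62 in total RNA and 0.73 in RPF. Above 0 were 3 of the 4 in each (53.1% and 54.9% of all genes). Atf4, Atf5 and Ddit3 were each higher in 3 of 3 pairs in both assays, beside 17.7% of all genes in total RNA and 15.6% in RPF. Eif2ak1, the exception, stood at −0.09 in total RNA (SE 0.13) and was lower in 3 of 3 pairs (16.2% of all genes). Its RPF value was −0.16 (SE 0.23). Atf4 stood at 0.61 in total RNA (SE 0.15, unadjusted p 0.00479, edgeR adjusted p 0.975) with pairs of 0.87, 0.39 and 0.55, and Atf5 at 1.37 (SE 0.47, unadjusted p 0.0227, edgeR adjusted p 0.975) with pairs of 1.58, 0.56 and 1.63. The annotation gives 2 gene identifiers for Ddit3, so its reads can be split, and only the lower identifier was used here. By that identifier Ddit3 stood at 0.63 in total RNA (SE 0.32) and at 1.03 in RPF (SE 0.48). Atf5 stood at 1.09 (SE 0.58) in RPF. In total RNA 2 of the 4, Atf4 and Atf5, had an edgeR unadjusted p under 0.05, beside 1.78% of all genes. For translational efficiency Atf4 was lower in 3 of 3 pairs (11.2% of all genes), at −0.18 (SE 0.36). No difference between this list and the 10 genes was tested.

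Chaperones of other compartments were set beside the mitochondrial ones. The 14 chaperones of the endoplasmic reticulum had a median of −0.30 in total RNA, with 0 of 14 above 0 (53.1% of all genes), and of −0.35 in RPF, and by pairs the total RNA median was −0.84, −0.31 and 0.15. In RPF 7 of the 14 were lower in 3 of 3 pairs (15.2% of all genes), among them Sdf2l1 (−0.64, SE 0.30) and Pdia6 (−0.57, SE 0.58). For translational efficiency Calr was at 0.17 (SE 0.48) and Manf at −0.25 (SE 0.44). The 19 cytosolic chaperones tested, of 20, had a median of −0.06 in total RNA and −0.09 in RPF. Hsp90aa1 (−0.09, SE 0.24) and Dnajb1 (−0.23, SE 0.20) in total RNA and Hsph1 (−0.19, SE 0.43) and Cct3 (−0.23, SE 0.43) in RPF were lower in 3 of 3 pairs. They were all of the 2 such genes among the 19 in total RNA (16.2% of all genes) and 2 of the 5 in RPF (15.2% of all genes). The small heat shock protein Hspb1, named after its values were seen, had the highest value of the list, 1.64 (SE 1.09) in total RNA with pairs of 2.15, 0.72 and −0.24. In RPF Hspb1 had 0 to 85 counts per library.

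**Figure D5:**
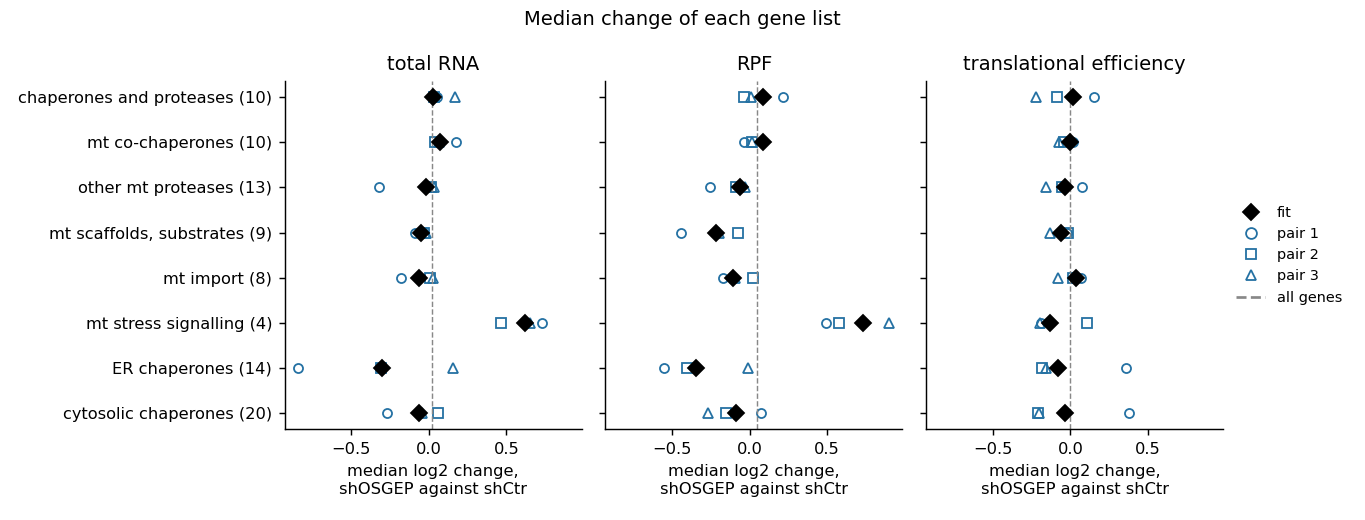
Median log2 change of shOSGEP against shCtr for the 10 chaperone and protease genes and 7 lists (number of genes in brackets, mt for mitochondrial), with diamonds for the fit, open symbols for the 3 replicate pairs and a dashed line at the median of all genes. The 4 stress signalling genes have medians of 0.62 in total RNA and 0.73 in RPF, while the chaperone and protease genes have medians of 0.03 and 0.09.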

How the data were processed

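Ribosome-protected fragments and total RNA were measured in 3 shCtr and 3 shOSGEP samples, and groups came from the sample labels. The authors deposited raw read counts per Ensembl gene (55487 genes, no pooled columns). The processing notes name FastQC 0.11.9, Trim Galore 0.6.6, cutadapt, STAR and the builds GRCm38 and GRCm39. The study's methods name STAR and Salmon in an nf-core workflow for total RNA sequencing, and for footprints STAR against a GRCm38 coding transcriptome with perfect matches kept. Whether the deposited gene tables come from these steps, and their use of strand and of reads with several matches, is not given in the sources used here. Genes were named with GENCODE mouse release M21 (GRCm38), which held 55227 of the identifiers, and 260 were not found.

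Genes with low counts were removed (edgeR filterByExpr), libraries were scaled by TMM within each assay, and shOSGEP was compared with shCtr by the quasi-likelihood test of edgeR 4.0.16 (R 4.3.3) over all genes, with Benjamini-Hochberg adjustment and a threshold of 0.05. Translational efficiency was the interaction of assay and genotype over 12 libraries. Pair differences used log2 CPM with a prior count of 2. Samples with the same replicate number deviated together (in total RNA with correlations of 0.515, 0.5418 and 0.2867, in RPF of 0.5855, 0.5084 and 0.6647), so the numbers were taken to pair the samples, and the fit with the replicate as a block was an alternative. For translational efficiency the block was the cell sample, which paired RPF with RNA and did not pair the genotypes. Other alternatives were DESeq2 1.42.0, RLE size factors, no filter, protein-coding genes only, a prior count of 0.5, exon length for RPF and leaving out each library. The scripts were tested on simulated libraries drawn independently, with a shared dispersion and no replicate effect. That is a check of the code and gives no rate of detection for these data. Levels per length used merged exons for RNA and coding sequence for RPF.

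The members and gene lists were chosen with earlier results of these data known. All 10 members were named. Of each list, genes with an unadjusted p under 0.05 were named, and the 2 with the largest median pair difference among those of one sign in 3 pairs. For Hspd1 the 5 genes nearest in centred log2 CPM were named.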

Additional observations from a re-analysis of the deposited data

How the results depend on the processing

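Of 153 values of the 10 genes under settings that kept all libraries, 148 kept their direction and none passed the threshold (smallest adjusted p 0.721). The 5 that turned were near 0, namely Lonp1 in total RNA (−0.00798) and Clpp in RPF (−0.0301) with no filter, and Hspa9 for translational efficiency with RLE size factors (0.00826), DESeq2 (0.00827) and protein-coding genes only (0.0201). Over all genes, DESeq2 called 8 in total RNA and 1 in RPF, no filter called 229 in RPF, and the replicate block called 1 in total RNA, while edgeR as reported called 0, and the cause was not tested. With the replicate block, the medians of the 10 genes were 0.04 in total RNA, 0.11 in RPF and 0.01 for translational efficiency, and no call of a member was changed. The number of members with an interval within 1 log2 unit of 0 went from 4 to 10 in RPF and from 6 to 7 for translational efficiency. In total RNA and RPF this block paired shCtr with shOSGEP by number. For translational efficiency it paired RPF with RNA of the same cell sample, so the genotypes were not paired there. With exon length in place of coding length the footprints per RNA of shCtr cells were lower, by construction, and their order turned, since Hspe1 (0.292) and Yme1l1 (0.351) went from the highest to the lowest and Lonp1 (0.607) became the highest.

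Leaving out 1 library or replicate turned 60 of 270 values, and none passed the threshold (smallest adjusted p 0.701). The medians of the 10 genes ran from −0.0228 to 0.17 in total RNA, −0.0609 to 0.27 in RPF and −0.19 to 0.20 for translational efficiency, and genes called stayed at 0. In total RNA the changes ran from −0.32 to 0.30 for Hspd1, −0.24 to 0.16 for Lonp1, −0.0966 to 0.0664 for Clpp, −0.16 to 0.10 for Clpx and −0.25 to 0.0564 for Dnaja3, and, with no turn, from 0.0223 to 0.29 for Hspe1, 0.0872 to 0.33 for Hspa9, 0.0507 to 0.28 for Yme1l1, 0.00564 to 0.0669 for Trap1 and 0.24 to 0.55 for Oma1. In RPF they ran from −0.88 to 0.16 for Hspd1, −0.45 to 0.26 for Hspe1, −0.0613 to 0.19 for Lonp1, −0.30 to 0.25 for Clpp, −0.0898 to 0.46 for Clpx, −0.12 to 0.43 for Trap1, −0.16 to 0.64 for Yme1l1 and −0.0431 to 0.36 for Oma1, and, with no turn, from 0.00901 to 0.43 for Hspa9 and −0.39 to −0.0562 for Dnaja3. For translational efficiency they ran from −0.58 to 0.0394 for Hspd1, −0.74 to 0.23 for Hspe1, −0.21 to 0.23 for Hspa9, −0.0724 to 0.16 for Lonp1, −0.25 to 0.24 for Clpp, −0.0260 to 0.37 for Clpx, −0.18 to 0.0193 for Dnaja3, −0.12 to 0.39 for Trap1, −0.22 to 0.39 for Yme1l1 and −0.37 to 0.0251 for Oma1.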
